A study of Mus musculus with 4 samples.

Results

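Amino acids enter lymphocytes through carriers of several solute carrier families, and the transcripts of 6 of these families were compared in 3 kinds of mouse innate lymphoid cell. The members were the protein-coding genes whose GRCm38 symbol begins with Slc1a, Slc3a, Slc7a, Slc36a, Slc38a or Slc43a followed by a number. Of the 21856 protein-coding genes listed in all 4 count tables, 43 were members: 7 of Slc1a, 2 of Slc3a, 16 of Slc7a, 4 of Slc36a, 11 of Slc38a and 3 of Slc43a. They were chosen by symbol and not by their values, though with earlier results of these data known. One of the 16 with an Slc7a symbol, Slc7a6os, lies 2.01 kb from Slc7a6 on the other strand and does not encode a carrier, so it was counted as a member but kept out of the family sums, which cover 42 carriers. A further 2 genes with such symbols, Slc36a1os and Slc36a3os, are not protein-coding and were left out.

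Carriers differ in what drives them and where they sit. The Slc7a light chains LAT1 and LAT2 (Slc7a5 and Slc7a8) exchange large neutral amino acids. They reach the plasma membrane only when bound to the CD98 heavy chain (Slc3a2). Sodium-coupled carriers of Slc38a instead concentrate glutamine, alanine and serine that exchangers can then trade. In activated lymphocytes, uptake through LAT1 and the glutamine carriers feeds protein synthesis and the kinase complex mTORC1, and several Slc36a and Slc38a proteins act at the lysosome, where that complex reads amino acid supply.

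The NK library, labelled as group 1 cells, came from the spleen of wild-type C57BL/6 mice, and no culture or cytokine is given for it. The ILC2 library came from wild-type C57BL/6 bone marrow cells expanded with IL-25, IL-33, IL-7 and IL-2 at 10 ng/ml each as labelled; mice of both groups were pooled and 8 to 12 weeks old. The 2 MNK-3 libraries came from a single ILC3-like line, derived from NIH-Swiss thymocytes of fetal day 15, labelled as wild type and cultured with IL-15 and IL-7 (10 ng/ml). Cell type therefore coincided with tissue and culture, and for MNK-3 also with strain and with being an established line, so these cannot be told apart. In such bulk RNA, fewer cells of a type and less RNA per cell cannot be told apart either.

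Reads in shared genes numbered 4637812 for NK, 9298162 for ILC2 and, for the MNK-3 pair, 25617762 and 15177345. Levels are given as CPM, counts scaled to library size over these genes. They are divided by the kb of merged exons where single genes are compared with each other. Family sums and shares are of CPM not divided by length, so longer genes weigh more in them. Of the fixed cell type markers, 8 of 8 for NK cells had 10 CPM or more in NK, 6 of 7 for ILC2 in ILC2 and 5 of 7 for ILC3 in both MNK-3 libraries; Il17rb, at 3.98 CPM, was the ILC2 marker under that level in ILC2, and Il22 and Il17a were the ILC3 markers under it in MNK-3. Replicate 1 stood apart: 75.8% of its reads were assigned to no counted feature, against 23.1% to 47.1% in the others. Of shared genes, 95.6% had a count in it, against 69.6% to 76.0%. In replicate 1, the 4913 genes with no counts in the other 3 libraries had a median of 0.470 CPM per kb, used here as a measure of its background. T cell markers summed to 198 CPM in replicate 1 and 10.2 CPM in replicate 2, and erythroid markers to 22.3 and 3.95 CPM, so low MNK-3 levels are given in both libraries and rest on replicate 2 where they differ.

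Of the 43 members, 12 had 10 CPM or more in all 4 libraries: Slc1a5, Slc3a2, Slc7a1, Slc7a5, Slc7a6, Slc7a6os, Slc36a1, Slc38a1, Slc38a2, Slc38a7, Slc38a10 and Slc43a2. Another 13 reached that level in at least 1 library, 7 of them in MNK-3 replicate 1 only, and 18 stayed under it throughout. By library, 15 members had 10 CPM or more in NK, 17 in ILC2, and 23 and 14 in MNK-3 replicates 1 and 2.

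**Figure D1:**
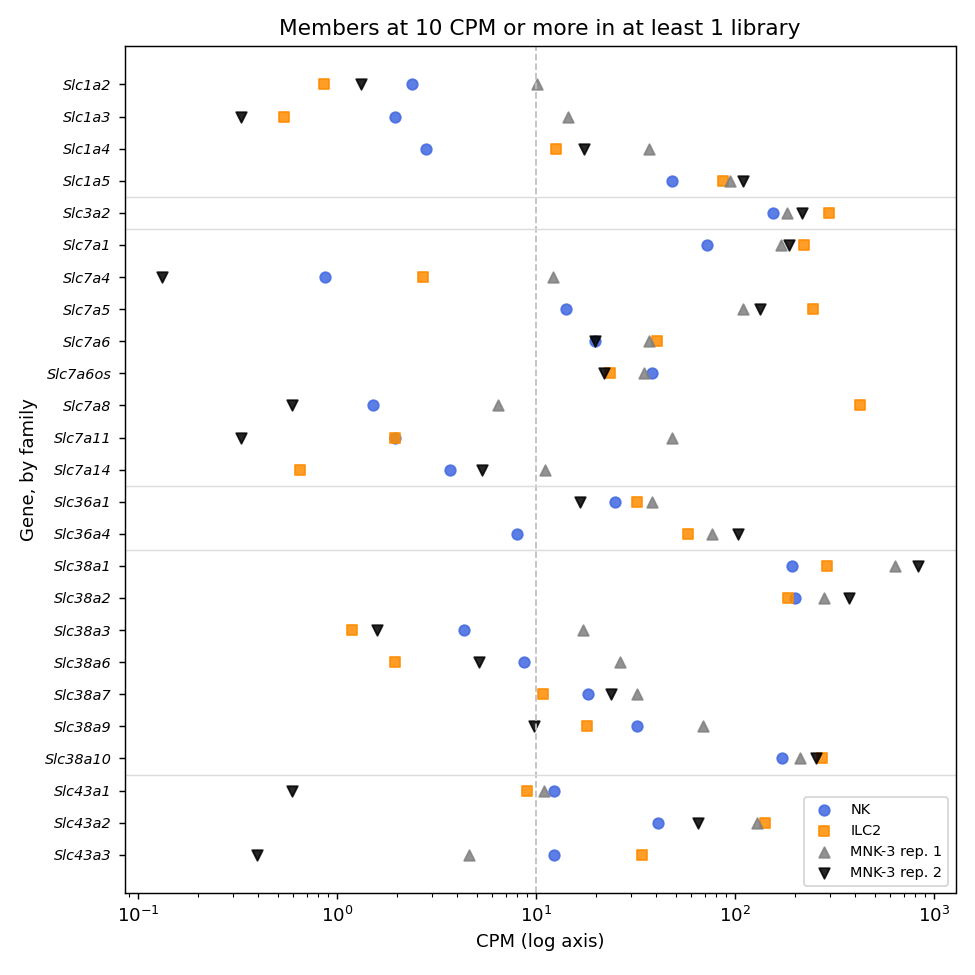
CPM on a log axis for the 25 members at 10 CPM or more in at least 1 library, grouped by family, with 1 symbol per library and a dashed line at 10 CPM. Slc7a8 is far to the right in ILC2 at 424 CPM, Slc38a1 is highest in both MNK-3 libraries, and Slc7a11 passes the line in MNK-3 replicate 1 only.

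Summed over the 42 carriers, NK cells had less carrier RNA than either cultured population, which were near each other. The sum was 1070.0 CPM in NK (95% exact Poisson interval 1041 to 1100.0), 2402 in ILC2 (2371 to 2434), and 2339 and 2372 in MNK-3 replicates 1 and 2. The ILC2 sum was 2.25 times that of NK, and the MNK-3 mean was 2.20 times that of NK and 0.981 times that of ILC2. With median-of-ratios scaling the log2 ratio of MNK-3 to ILC2 moved from -0.03 to -0.64. Such intervals cover counting error only, and no test was made on sums, since NK and ILC2 have 1 library each. Proliferation markers, which summed to 284 CPM in NK, 3785 in ILC2, and 5575 and 7830 in MNK-3, were also lowest in NK, and their part in the carrier sums was not tested.

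The families that made up these near-equal sums differed between ILC2 and MNK-3, in large part through 1 gene in each of Slc7a and Slc38a. Slc7a carriers held 39.5% of all carrier reads in ILC2, against 11.5% in NK and 18.1% and 14.7% in MNK-3. Slc38a carriers held 32.5% in ILC2, against 59.0% in NK and 55.1% and 62.9% in MNK-3. The Slc7a sum was 123 CPM in NK, 949 in ILC2, and 424 and 348 in MNK-3, which puts ILC2 at 7.71 times NK and the MNK-3 mean at 0.407 times ILC2. The Slc38a sum was 632 CPM in NK, 780.4 in ILC2, and 1289 and 1492 in MNK-3, with the MNK-3 mean at 1.78 times ILC2 and 2.20 times NK. Slc7a8 alone held 44.7% of the Slc7a sum in ILC2. Slc38a1 held 37.2% of the Slc38a sum in ILC2, and 49.2% and 55.3% in MNK-3. By library totals, both Slc7a values in MNK-3 lay between NK and ILC2, and both Slc38a values lay above NK and ILC2. Trimmed-mean and median-of-ratios scaling divided MNK-3 replicate 1 by 1.40 and 1.85, and ILC2 by 0.814 and 0.730. The Slc38a sum of replicate 1 then fell below that of ILC2.

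Among the smaller families, the order of libraries varied. The Slc1a sum was 58.0 CPM in NK, 103 in ILC2, and 172 and 129 in MNK-3, and the Slc36a sum was 34.7, 91.1, 125 and 120 CPM in the same order. Both MNK-3 values exceeded that of ILC2 in each family, a direction that turned with median-of-ratios scaling, under which the log2 ratio of MNK-3 to ILC2 was -0.16 for Slc1a and -0.20 for Slc36a. The Slc3a sum was 157 CPM in NK, 295 in ILC2, and 185 and 218 in MNK-3. The Slc43a sum was 65.3 CPM in NK and 184 in ILC2, but 144 and 65.7 in the 2 MNK-3 libraries, so whether MNK-3 lay near NK or ILC2 depended on the library.

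**Figure D2:**
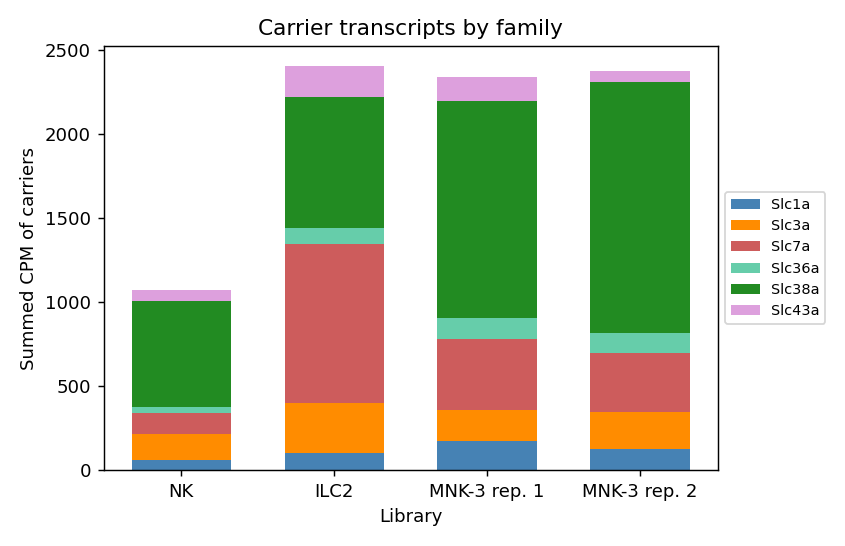
Stacked bars of summed CPM of the 42 carriers in each library, from 0, with 1 colour per family. The NK bar ends at 1070.0 CPM and the other 3 between 2339 and 2402 CPM, with the Slc7a segment widest in ILC2 and the Slc38a segment widest in both MNK-3 libraries.

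The heavy chain Slc3a2 (ENSMUSG00000010095, chromosome 19, 8706882 to 8723369, GRCm38), without which LAT1 and LAT2 do not reach the cell surface, was abundant in all libraries. It had 155 CPM in NK, 294.0 in ILC2, and 182 and 217 in MNK-3. By length it ranked first among the members in NK and both MNK-3 libraries, at 44.0, 51.5 and 61.5 CPM per kb, and second in ILC2, at 83.3 CPM per kb. ILC2 was 1.89 times NK, a difference that did not pass the test (limma voom, adjusted p 0.999). The other heavy chain, Slc3a1, which forms the cystine carrier of kidney and gut with Slc7a9, had 3.55 CPM or less in every library, and 26.5% of its exonic bases overlap Prepl on the opposite strand.

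Slc7a8 (ENSMUSG00000022180, chromosome 14, 54722209 to 54781946), which encodes LAT2, had the widest range among members between ILC2 and the other cells. It had 1.51 CPM in NK, 424 in ILC2, and 6.40 and 0.593 in MNK-3, so a single library held nearly all of its reads. ILC2 exceeded NK 281-fold (95% interval of counting error 136 to 699) and exceeded MNK-3 replicates 1 and 2 by 66.2-fold (56.7 to 77.9) and 715-fold (376 to 1565). Against ILC2, Slc7a8 was lower in MNK-3 by a fitted log2 value of -7.24 (limma voom, SE 2.02, adjusted p 0.0144), and the ILC2 to NK difference of 8.04 (SE 5.41) did not pass (limma voom, adjusted p 0.999). The MNK-3 libraries lay on either side of NK, at 4.24 and 0.393 times its level. In the RefSeq promoter table for GRCm38.p6, 190 of the 250 bases upstream of the Slc7a8 start lie outside exons, and 60 exonic bases were left out. The 190 bases, at chr14:54781947-54782136 on the minus strand, are shown because this member marked out ILC2.
Slc7a8: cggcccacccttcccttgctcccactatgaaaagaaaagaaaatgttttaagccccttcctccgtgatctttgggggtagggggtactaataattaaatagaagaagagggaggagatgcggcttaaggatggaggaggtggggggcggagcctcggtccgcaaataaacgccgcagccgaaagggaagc
It holds none of the 4 motifs searched, so no letters are in capitals.

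Slc7a5 (ENSMUSG00000040010, chromosome 8, 121881150 to 121907694), which encodes LAT1, the main importer of leucine and other large neutral amino acids in activated lymphocytes, was low in NK alone. It had 14.0 CPM in NK, 245 in ILC2, and 109 and 132 in MNK-3. ILC2 was 17.5 times NK (counting interval 13.6 to 22.7), and the MNK-3 libraries were 7.81 and 9.45 times NK. MNK-3 was lower than ILC2 by a fitted log2 value of -1.05 (limma voom, SE 0.310, adjusted p 0.0267), and neither difference from NK passed (limma voom, adjusted p 0.999 for ILC2 and 1.00 for MNK-3).

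The light chains that pair with the CD98 heavy chain were compared by length. Slc7a5, Slc7a6, Slc7a7, Slc7a8, Slc7a10 and Slc7a11 together had 10.5 CPM per kb in NK, 161 in ILC2, and 46.2 and 40.7 in MNK-3. Relative to Slc3a2 in the same library, that is 0.238 in NK, 1.93 in ILC2, and 0.898 and 0.662 in MNK-3. Light chain RNA thus exceeded heavy chain RNA in ILC2 only, among these 4 libraries, and scaling between libraries does not enter these ratios.

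The leading light chain also differed. In NK, Slc7a6, an exchanger of cationic for neutral amino acids, made up 41.0% of the light chain sum per kb and Slc7a5 36.1%. In ILC2, Slc7a8 made up 52.6% and Slc7a5 40.9%. In MNK-3, Slc7a5 alone made up 63.8% and 87.7%. Slc7a6 itself varied less between libraries, with 19.6 CPM in NK, 40.4 in ILC2, and 36.7 and 19.7 in MNK-3, and Slc7a7 and Slc7a10 were under 10 CPM throughout.

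**Figure D3:**
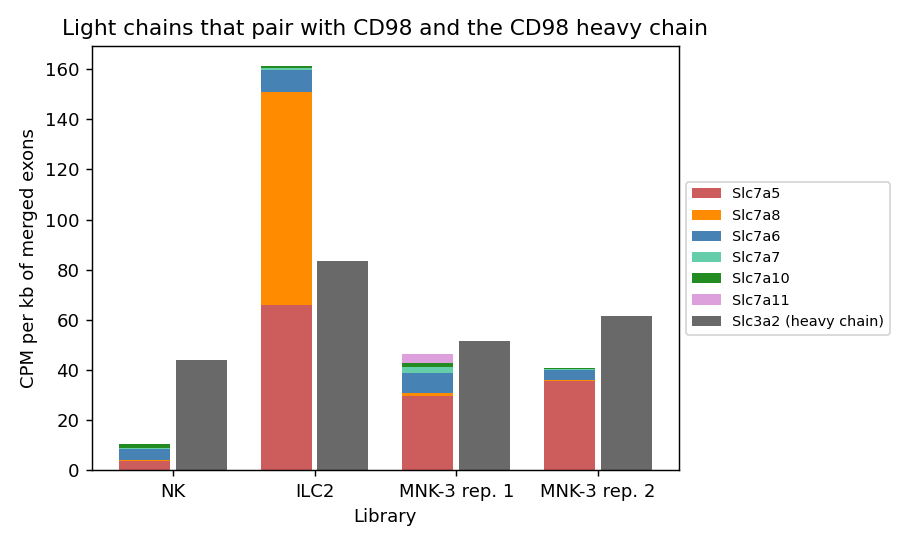
CPM per kb of merged exons in each library, with the 6 light chains of CD98 stacked in the left bar and the heavy chain Slc3a2 in the right bar. The stack is higher than the heavy chain bar in ILC2, at 161 against 83.3 CPM per kb, and lower in NK and both MNK-3 libraries.

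Slc7a11 encodes xCT, the light chain that imports cystine for glutathione synthesis in exchange for glutamate. NK and ILC2 each had 1.94 CPM, MNK-3 replicate 1 had 48.1 and replicate 2 had 0.329. The MNK-3 replicates differed 146-fold (counting interval 62.4 to 450), the widest gap between them among members with a count in both. Taken as a mean, MNK-3 lay 3.34 above NK and above ILC2 on the log2 (CPM + 0.5) scale, whereas replicate 2 alone lay at -1.56 and -1.55, so the direction rested on replicate 1. In replicate 1 its 3.45 CPM per kb was 7.34 times the background median, and the background genes reached 3.15 CPM per kb at their 95th percentile. Among the 10099 protein-coding genes under 5 CPM in each of the other 3 libraries, replicate 1 had a median of 1.05 CPM per kb and 5.20 at the 95th percentile, and Slc7a11 lay at the 89.0 percentile of these. The 249 bases upstream of its start that lie outside exons, at chr3:50443615-50443863 on the minus strand (RefSeq, GRCm38.p6), are shown because this window holds 2 matches to the C/EBP-ATF response element, with matches in capitals.
Slc7a11: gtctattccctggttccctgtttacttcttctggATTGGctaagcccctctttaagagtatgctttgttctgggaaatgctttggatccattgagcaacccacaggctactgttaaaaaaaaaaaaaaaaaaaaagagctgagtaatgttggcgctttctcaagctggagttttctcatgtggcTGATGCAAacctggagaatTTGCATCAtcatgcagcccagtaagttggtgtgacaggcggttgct
The capitals mark, from the left, a CCAAT box on the other strand, 216 to 212 bases before the start, and the C/EBP-ATF letters TGATGNAA at 66 to 59 bases and, on the other strand, at 47 to 40 bases before it. These are letter matches and not measured sites.

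Slc7a1 (ENSMUSG00000041313, chromosome 5, 148327410 to 148399904), the widely expressed importer of arginine and lysine, was lowest in NK. It had 72.2 CPM in NK, 219.9 in ILC2, and 169 and 187 in MNK-3, so ILC2 was 3.05 times NK (counting interval 2.71 to 3.43) and the MNK-3 libraries were 2.33 and 2.59 times NK. None of its 3 comparisons passed (limma voom, adjusted p 0.784 for MNK-3 to NK, 0.999 for MNK-3 to ILC2 and 0.50 for ILC2 to NK). Its relative Slc7a3 stayed under 10 CPM but was not evenly low: it had 0.647 CPM in NK and 7.74 in ILC2, with 2.54 in the first MNK-3 library and no counts in the other, which allows up to 0.198 CPM by the limit of 3 counts. Slc7a2, the third arginine importer of this kind, had 5.97 CPM or less in every library.

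Slc7a4 and Slc7a14, relatives of the cationic carriers, passed 10 CPM in MNK-3 replicate 1 only. Slc7a4 had 0.863 CPM in NK, 2.69 in ILC2, 12.1 in replicate 1 and 0.132 in replicate 2. Slc7a14 had 3.67, 0.645, 11.0 and 5.34 CPM in the same order, and the counting intervals of NK (2.13 to 5.87) and replicate 2 (4.24 to 6.63) overlapped. Slc7a6os, the member that is no carrier, had 38.2 CPM in NK, 23.3 in ILC2, and 34.8 and 21.9 in MNK-3.

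Slc38a1 (ENSMUSG00000023169, chromosome 15, 96571418 to 96642913), a sodium-coupled importer of glutamine and other small neutral amino acids, was the member that stood out in MNK-3. It had 193 CPM in NK, 290.2 in ILC2, and 634 and 824 in MNK-3, so by library totals both MNK-3 libraries lay above the others. They were 3.28 and 4.27 times NK and 2.19 and 2.84 times ILC2. The fitted log2 fold was 1.89 against NK (SE 0.376, limma voom, adjusted p 5.12e-05) and 1.30 against ILC2 (SE 0.266, limma voom, adjusted p 9.07e-05). By length it ranked second in both MNK-3 libraries, at 36.8 and 47.8 CPM per kb, and below Slc1a5 in NK, at 11.2 against 11.5 CPM per kb. Median-of-ratios scaling, which divided replicate 1 by 1.85 and ILC2 by 0.730, put Slc38a1 in replicate 1 below ILC2.

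Slc38a2 (ENSMUSG00000022462, chromosome 15, 96687392 to 96699730) lies 44.5 kb from Slc38a1 and encodes SNAT2, a carrier of the same kind that cells are known to induce when amino acids are short. It had 200 CPM in NK, 184 in ILC2, and 280.2 and 373 in MNK-3. By library totals both MNK-3 libraries were again the highest, at 1.40 and 1.87 times NK and 1.52 and 2.03 times ILC2. Neither difference passed (limma voom, adjusted p 1.00 against NK and 0.232 against ILC2). Slc38a2 in replicate 1 lay below ILC2 with trimmed-mean scaling, and was lowest of all libraries with median-of-ratios scaling. Slc38a4, a further carrier of this type 295 kb from Slc38a2, had 3.67 CPM or less in every library.

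Slc38a10, less well characterised, was the most even of the 8 members at 100 CPM or more in replicate 2, with 171 CPM in NK, 273 in ILC2, and 211 and 253 in MNK-3; 5.72% of its exonic bases overlap another gene on the opposite strand. None of its comparisons passed (limma voom, adjusted p 0.999 to 1.00). The system N carriers, which move glutamine, were low outside replicate 1: Slc38a3 had 4.31 CPM in NK, 1.18 in ILC2, 17.2 in replicate 1 and 1.58 in replicate 2, and Slc38a5 had 2.23 CPM or less in every library. Slc38a6 had 8.63 CPM in NK, 1.94 in ILC2, and 26.3 and 5.14 in MNK-3.

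Of the Slc38a members known from lysosomes, Slc38a9 did not follow Slc38a1. Slc38a9, which senses arginine for mTORC1, had 31.9 CPM in NK and 18.0 in ILC2, with 69.0 and 9.75 in MNK-3 replicates 1 and 2, so the MNK-3 libraries lay at the top and the bottom of the range. Slc38a7, which exports glutamine from the lysosome, had 18.1 CPM in NK, 10.8 in ILC2, and 32.1 and 23.6 in MNK-3. By library totals both MNK-3 libraries were thus the highest, as for Slc38a1. With median-of-ratios scaling, Slc38a7 in replicate 1 fell below NK. No comparison of either gene passed (limma voom, adjusted p 0.999 to 1.00).

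In Slc1a, the glutamine exchanger and its closest relative carried most reads. Slc1a5 (ENSMUSG00000001918, chromosome 7, 16781340 to 16798274), which encodes ASCT2, had 48.1 CPM in NK, 86.9 in ILC2, and 94.1 and 109 in MNK-3. ILC2 was 1.81 times NK (counting interval 1.56 to 2.11), and none of its comparisons passed (limma voom, adjusted p 0.999 to 1.00). Slc1a4, an exchanger of alanine, serine and cysteine, had 2.80 CPM in NK, 12.5 in ILC2, and 36.7 and 17.3 in MNK-3, which puts the MNK-3 libraries at 13.1 and 6.16 times NK. The glutamate carriers of nerve and glia, Slc1a2 and Slc1a3, had 2.37 CPM or less in NK, ILC2 and replicate 2, against 10.1 and 14.3 CPM in replicate 1, and Slc1a1, Slc1a6 and Slc1a7 were under 10 CPM in every library.

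The Slc36a carriers split by member. Slc36a4 (ENSMUSG00000043885, chromosome 9, 15709738 to 15743361), a carrier of proline and tryptophan, had 7.98 CPM in NK, 57.8 in ILC2, and 76.7 and 103 in MNK-3. ILC2 was 7.24 times NK (counting interval 5.19 to 10.4), and the MNK-3 libraries were 9.61 and 12.9 times NK, but no comparison passed (limma voom, adjusted p 0.999 to 1.00). Slc36a1, which carries small amino acids out of the lysosome, had 24.8 CPM in NK, 32.1 in ILC2, and 37.9 and 16.6 in MNK-3, with no such gap. Slc36a2 and Slc36a3, its neighbours on chromosome 11, were under 10 CPM in every library. The 250 bases upstream of the Slc36a4 start, at chr9:15709488-15709737 on the plus strand (RefSeq, GRCm38.p6), are shown because this member was low in NK alone, with 1 CCAAT box of the other strand in capitals, 217 to 213 bases before the start.
Slc36a4: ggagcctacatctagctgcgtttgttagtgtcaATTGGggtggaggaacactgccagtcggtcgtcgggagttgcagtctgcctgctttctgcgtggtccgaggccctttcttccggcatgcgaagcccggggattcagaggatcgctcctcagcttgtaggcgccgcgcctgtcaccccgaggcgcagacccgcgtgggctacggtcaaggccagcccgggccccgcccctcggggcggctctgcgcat

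Across the promoter table, 32 of the 43 members had a window, with 43 windows of 250 bases in all. Letters were searched on both strands for the C/EBP-ATF response element TGATGNAA, the E-box CACGTG, the antioxidant response element TGACNNNGC and the CCAAT box CCAAT. Of 32851 windows in the table these occurred in 3.45%, 6.02%, 10.2% and 33.8%, and among the 43 member windows in 3, 7, 4 and 13. Member windows were richer in G and C, with a median of 55.6% and 10 CpG pairs, against 52.4% and 6 over all windows. Windows of the same member are not independent, and these frequencies were not tested. Members with TGATGNAA were Slc7a7 and Slc7a11. Slc7a5, Slc38a1 and Slc1a5 were among the 11 members without a window.

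Slc43a members are sodium-independent carriers, of branched-chain and other neutral amino acids for Slc43a1 and Slc43a2 and of purine nucleobases for Slc43a3. Slc43a2 (ENSMUSG00000038178, chromosome 11, 75531694 to 75577575) had 40.8 CPM in NK, 141 in ILC2, and 128 and 64.7 in MNK-3, with 9.18% of its exonic bases shared with a gene on the opposite strand. Slc43a3 had 12.3 CPM in NK, 33.8 in ILC2, and 4.61 and 0.395 in MNK-3, both below the primary cells. Slc43a1 had 12.3, 8.93, 11.0 and 0.593 CPM in the same order, so the MNK-3 libraries disagreed. No Slc43a comparison passed (limma voom, adjusted p 0.974 to 1.00).

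The 18 members under 10 CPM throughout were Slc1a1, Slc1a6, Slc1a7, Slc3a1, Slc7a2, Slc7a3, Slc7a7, Slc7a9, Slc7a10, Slc7a12, Slc7a13, Slc7a15, Slc36a2, Slc36a3, Slc38a4, Slc38a5, Slc38a8 and Slc38a11. Their highest values were 3.02 CPM in NK and 7.74 in ILC2, with 7.89 and 0.922 in the MNK-3 pair. Slc7a12 had no counts in NK, ILC2 and replicate 2, and all 18 had counts in replicate 1.

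The first comparison over all genes set MNK-3 against NK. All 43 members were among the 25283 genes tested. One member, Slc38a1, was higher in MNK-3 at an adjusted p under 0.05, where 0.289% of all genes tested were called higher, and no member was lower, where 2.04% were. At an unadjusted p under 0.05, 2 members were higher and 0 lower, against 338 and 974 of the 25283 genes. Limma with a mean-variance trend called 7 members higher and 0 lower. Over all genes it called 3058 in both directions together, more of them higher than lower. By size, meaning 4-fold or more between group values with 10 CPM or more in the higher group, Slc1a4, Slc7a5, Slc7a11 and Slc36a4 were higher in MNK-3, 4 of the 19 members that reached 10 CPM in either group, against 16.5% of all such genes, with Slc7a11 there through replicate 1 alone. Slc43a3 was lower, 1 of 19, against 4.50%, with a log2 ratio of -2.09, and was not lower by this size with abundant-gene scaling, with a pseudocount of 2 CPM or with replicate 2 left out. The median log2 ratio over all 43 members was 0.92, and over all 30731 genes 0.66. Both include many genes that were low outside replicate 1. Among genes at 10 CPM or more in either group, a choice that favours genes that differ, the medians were 0.71 for 19 members and 0.58 for 11277 genes.

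The second set MNK-3 against ILC2. Slc38a1 was called higher, where 0.902% of all genes were, and Slc7a8 and Slc7a5 were called lower, where 2.37% were. By size, Slc7a11 and Slc38a6 were higher, 2 of 19 against 14.2% of all genes, and Slc7a8 and Slc43a3 were lower, 2 of 19 against 3.88%. Slc7a11 and Slc38a6 reached this size through replicate 1 alone, and with it left out no member was higher by size. The count by size over both directions, 4, was 2 with replicate 1 left out and 8 with replicate 2 left out. The median log2 ratio was 0.92 over the members and 0.88 over all genes. Among genes at 10 CPM or more in either group, chosen in the same way as before, it was 0.22 for 19 members and 0.51 for 11253 genes.

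The third set ILC2 against NK, with 1 library each. No member was called in either direction by limma voom, where 0.479% of genes were called higher and 0.819% lower in ILC2. At an unadjusted p under 0.05, 2 members, Slc3a2 and Slc7a1, were higher and 0 lower, against 427 and 612 of 25283 genes. Limma with a mean-variance trend called 5 members higher and 0 lower, against 1232 and 798 of those genes. The 5 were Slc7a1, Slc7a5, Slc7a8, Slc36a4 and Slc43a2. By size, Slc7a5, Slc7a8 and Slc36a4 were higher, 3 of 18 against 9.78% of all genes, and 0 of 18 were lower against 7.03%. The median log2 ratio was 0.00 over the members and -0.09 over all genes, and 0.88 for 18 members and 0.067 for 9795 genes at 10 CPM or more in either group. The comparisons share the NK, ILC2 or MNK-3 libraries with each other, so they are not independent.

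The calls depended on how libraries were scaled. Under trimmed-mean scaling (TMM), median-of-ratios scaling or factors from abundant genes, Slc38a1 kept its direction but its adjusted p was 1.00 against NK in each, and 0.541 to 1.00 against ILC2 (limma voom; 1.65e-05 to 1.00 and 1.63e-05 to 1.00 over all alternatives). Its fitted log2 fold was then 1.92, 1.67 and 2.00 against NK and 0.99, 0.74 and 1.39 against ILC2, in that order of scalings. Slc7a8 stayed lower in MNK-3 than ILC2 at adjusted p 0.00126 and 0.0128 with TMM and median-of-ratios scaling and lost the call with abundant genes, and with no filter on low counts at adjusted p 0.229 (limma voom, 8.83e-07 to 1.00 over all alternatives). Slc7a5 lost its call against ILC2 in all 3 (limma voom, 0.0150 to 1.00 over all alternatives), with fitted log2 values of -1.35, -1.59 and -1.005. Over all genes the median log2 ratio, 0.66 for MNK-3 to NK with library totals, was 0.48, 0.27 and 0.74 under those scalings, and for MNK-3 to ILC2 it moved from 0.88 to 0.56, 0.36 and 0.94.

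The MNK-3 pair set the error of every test. The 12 members at 10 CPM or more in all 4 libraries had 0.751 to 2.28 times the replicate 2 level in replicate 1, with a median of 0.884. Slc43a2, for one, had 128 and 64.7 CPM. Chosen without the MNK-3 libraries, the 14 members at 10 CPM or more in both NK and ILC2 had 0.751 to 11.7 times the level, with a median of 1.13. The 23 members under 10 CPM in both NK and ILC2 that had a count in replicate 2 had 2.06 to 146 times that level, with a median of 13.3, so all 23 were higher in replicate 1.

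**Figure D4:**
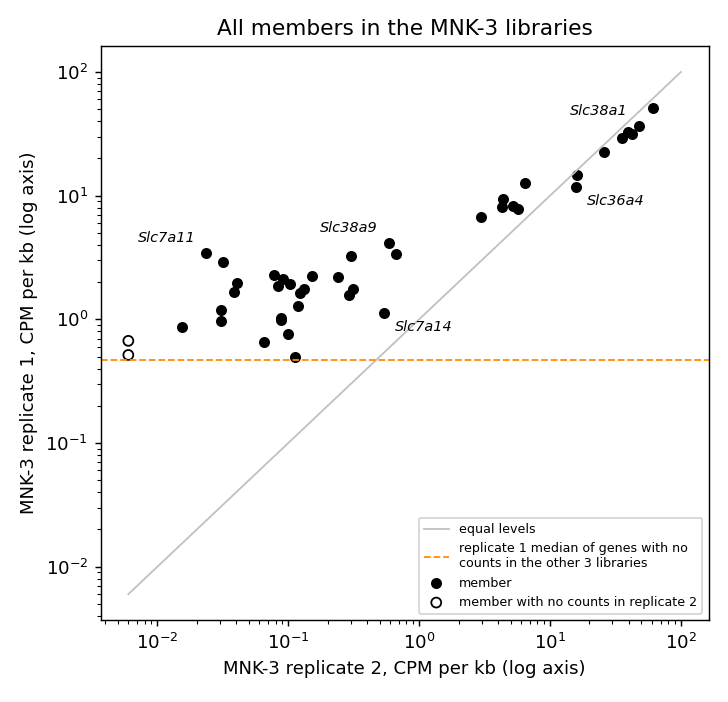
CPM per kb of all 43 members in MNK-3 replicate 1 against replicate 2, both on log axes, with the line of equal levels, the replicate 1 background median of 0.470 CPM per kb as a dashed line, and open circles at the left for 2 members with no counts in replicate 2. Members lie on both sides of the line at high levels, and the low members lie above it, Slc7a11 farthest.

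Genes of related pathways were read from fixed lists. The integrated stress response and ATF4 list, whose factor ATF4 is known to induce several of these carriers when amino acids are short, had a median log2 ratio of 1.58 for ILC2 against NK and 1.43 for MNK-3 against NK, where all genes had -0.09 and 0.66. By size, 11 of 24 genes at 10 CPM were higher in ILC2 than NK and 2 lower, against 9.78% and 7.03% of all genes, and 9 of 23 were higher in MNK-3 than NK and 1 lower, against 16.5% and 4.50%. Asns, asparagine synthetase, chosen after its values were seen, had 1.08 CPM in NK, 139 in ILC2, and 166 and 246 in MNK-3. Atf4 itself had 159, 348, 225 and 290.2 CPM in that order.

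Few genes of that list passed. None of its 25 genes was called for ILC2 against NK by limma voom, 5 had an unadjusted p under 0.05 and limma trend called 12. Of all 25283 genes tested, 427 were higher and 612 lower at that p, and limma trend called 2030. Ppp1r15a, which reverses the stress response, was the one called against NK in MNK-3, lower by a log2 ratio of -2.15 (limma voom, adjusted p 0.00135). Against ILC2, Psat1 of serine synthesis, the mTORC1 inhibitor Ddit4 and the translation repressor Eif4ebp1 were lower in MNK-3 (limma voom, adjusted p 9.33e-05, 2.03e-12 and 3.02e-04). Ddit4 had 50.7 CPM in NK, 274 in ILC2, and 44.2 and 24.4 in MNK-3.

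The cytosolic aminoacyl-tRNA synthetases, which load the imported amino acids onto tRNA, were 23 genes that all had 10 CPM. Their medians were 1.33 for ILC2 against NK and 0.83 for MNK-3 against NK, where all genes had -0.09 and 0.66. Eprs and Gars were called higher in ILC2 than NK (limma voom, adjusted p 0.0385 and 0.0218), with Eprs at 231 and 590.0 CPM. Aars was called higher in MNK-3 than in NK and than in ILC2 (limma voom, adjusted p 3.21e-04 and 0.0407), with 77.6 CPM in NK, 266 in ILC2, and 440 and 570.2 in MNK-3. Iars, Qars and Vars were called lower in MNK-3 than ILC2 (limma voom, adjusted p 1.43e-04, 0.0455 and 0.00100).

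Among 33 genes of amino acid sensing by mTORC1, the medians against NK were 0.09 for ILC2 and 0.69 for MNK-3, where all genes had -0.09 and 0.66. Limma voom called no gene of this list against NK in either comparison. At an unadjusted p under 0.05 there was 1 gene in each, and limma trend called 5 for ILC2 and 6 for MNK-3. Of all 25283 genes tested, limma trend called 2030 and 3058 in these comparisons. Rptor, the complex's scaffold, was called higher in MNK-3 than ILC2 and the arginine sensor Castor1 lower (limma voom, adjusted p 0.0425 and 0.0208). Castor1 had 9.92 CPM in NK, 141 in ILC2, and 7.46 and 1.65 in MNK-3, so that, as with Slc7a8, ILC2 was the high library. Mtor had 110 CPM in NK, 140.1 in ILC2, and 209 and 231 in MNK-3.

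In glutamine, branched-chain and glutathione metabolism, 1 of 20 genes was called in all 3 comparisons. Glud1, glutamate dehydrogenase, had 334 CPM in NK, 1084 in ILC2, and 133 and 172 in MNK-3, and was higher in ILC2 than NK and lower in MNK-3 than either (limma voom, adjusted p 1.14e-04, 0.0226 against NK and 2.57e-30 against ILC2). Glul, glutamine synthetase, and Gsr, glutathione reductase, were lower in MNK-3 than ILC2 (limma voom, adjusted p 3.10e-09 and 2.82e-04).

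Of 29 amino acid carriers of other families, 28 were tested and 1 was called. Slc6a6, the taurine carrier, was lower in MNK-3 than in ILC2 (limma voom, adjusted p 0.0223), with 66.6 CPM in NK, 229 in ILC2, and 110 and 104 in MNK-3. The list's median was -0.35 for ILC2 against NK and 1.08 for MNK-3 against NK, where all genes had -0.09 and 0.66. The list's median for MNK-3 against NK was 0.10 with replicate 1 left out. The mitochondrial carrier Slc25a12 was even, with 92.5, 121, 103 and 95.3 CPM in library order.

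Of 8 transcription factors and partners known to act on these carriers, Hif1a and Srebf1 were called higher in ILC2 than NK (limma voom, adjusted p 8.08e-05 and 0.0410), and Myc, Hif1a and Srebf1 lower in MNK-3 than ILC2 (limma voom, adjusted p 1.61e-09, 2.89e-08 and 3.88e-05). Myc, which is known to induce Slc7a5 and Slc1a5 in activated T cells, had 62.3 CPM in NK, 229 in ILC2, and 50.7 and 19.5 in MNK-3. The difference of Myc between MNK-3 and NK did not pass (limma voom, adjusted p 1.00). By size, 1 of the 8, Mycn, was higher in MNK-3 than NK and than ILC2, against 16.5% and 14.2% of all genes. Mycn had 2.37 CPM in NK, 2.26 in ILC2, and 23.5 and 23.6 in MNK-3, and no comparison of it passed. By size, 0 of the 8 were lower in MNK-3 than NK and 1, Myc, was lower than ILC2. Of the 24 calls made on genes of these lists, 0 were kept under all 3 other scalings and 20 under none.

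**Figure D5:**
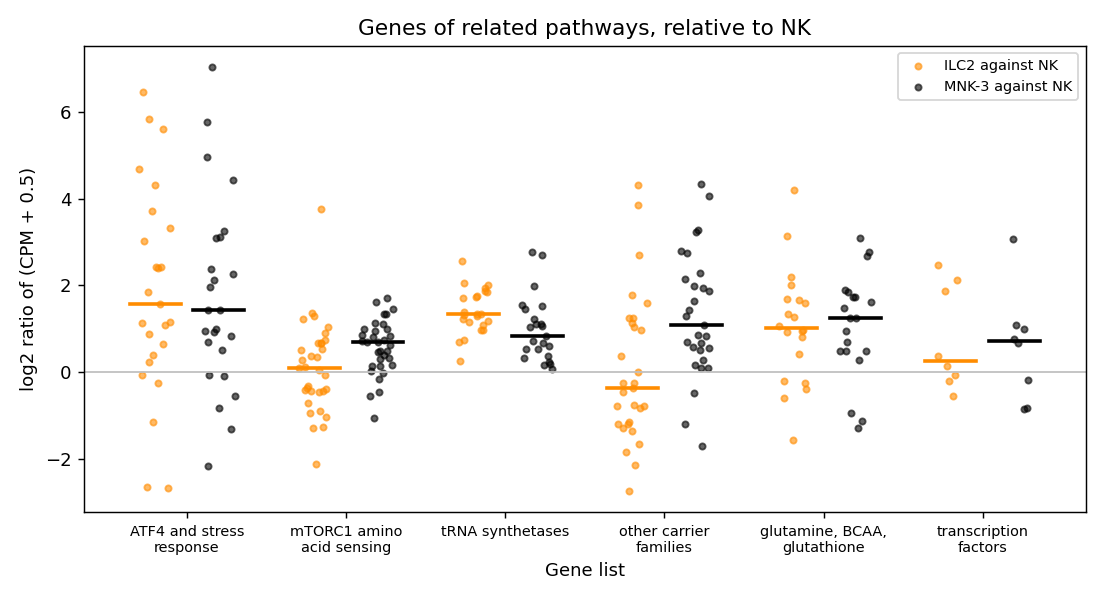
Log2 ratio of (CPM + 0.5) against NK for each gene of the 6 related lists, with ILC2 in orange, the mean of both MNK-3 libraries in black, 1 point per gene and a bar at each list's median. The stress response list has medians of 1.58 and 1.43 and the widest spread, and the tRNA synthetases have 1.33 and 0.83 with all genes above 0; both series share the NK library.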

How the data were processed

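The authors deposited whole-number read counts per gene, recorded here under the unit other because the tables are tab-separated under another file type, and not normalized. STAR 2.7.8a aligned the reads to mm10/GRCm38 and HTSeq counted them, per the submitters' processing notes. Pairs of 38 bp reads came from stranded total RNA libraries, per the labels' protocols, which also name technical replicates whose pooling is not given in the sources used here, nor are strand setting and annotation. Of the genes, 53465 were listed for NK and ILC2 and 31053 for MNK-3, and 30731 in all. Entries that name no gene held 49.3% (NK), 25.9% (ILC2), 76.5% and 26.6% (MNK-3) of reads and were left out, as were genes not listed everywhere, with 3.06%, 1.89%, 0.131% and 0.0400% of gene reads. Coordinates and exon lengths came from GENCODE M21.

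All 4 libraries entered 1 limma voom fit (limma 3.58.1, R 4.3.3) of 3 groups, scaled by totals over shared genes, after leaving out genes with no library at the CPM of 10 counts in a library of median size or with a total under 15. Tests were two-sided with Benjamini-Hochberg adjustment over all genes tested, at 0.05. The single residual degree of freedom comes from the MNK-3 pair, the prior degrees of freedom were infinite, and NK and ILC2 are assumed to vary as that pair does, so p-values measure only a spread between libraries that may be technical. Size ratios add 0.5 CPM and use the MNK-3 mean. Fold intervals are exact, at 95%, and cover counting error only. Scripts were tested on simulated data. Named were all members at 10 CPM or more, and of each list the genes called and the 3 highest or fewer. Asns and Mycn were named outside that rule, after their values were seen. Members and lists were chosen with earlier results of these data known. Alternatives were 3 other scalings, no filter, pseudocounts of 0.1 and 2 CPM, each MNK-3 replicate left out, fewer libraries in the fit, a limma trend fit and MNK-3 replicate 1 less its background.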

Additional observations from a re-analysis of the deposited data

How the results depend on the processing

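With library totals, 590 genes were called for MNK-3 against NK, 828 for MNK-3 against ILC2 and 328 for ILC2 against NK. In that order TMM scaling called 132, 83 and 0, median-of-ratios 99, 50 and 0, abundant genes 87, 244 and 40, and limma trend 3058, 2247 and 2030; without the filter, 389 were called for MNK-3 against NK and 183 for ILC2 against NK. Members called, 1, 3 and 0, became 0, 1 and 0 with TMM and with median-of-ratios, 0, 0 and 0 with abundant genes, and 7, 3 and 5 with limma trend. By size, the 4 members for MNK-3 against ILC2 ranged from 2 to 8 with a replicate left out, and the 3 for ILC2 against NK became 5 with TMM and 6 with median-of-ratios. The log2 ratio of summed CPM over carriers, 1.14 for MNK-3 against NK, was 1.11 with TMM, 0.88 with median-of-ratios, 1.19 with abundant genes and 1.10 with replicate 1 less its background; -0.03 for MNK-3 against ILC2 became -0.40, -0.64, -0.005 and -0.065; and 1.17 for ILC2 against NK became 1.51 with TMM and 1.51 with median-of-ratios.

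Directions also turned. With a replicate left out, Slc7a11 in MNK-3 ranged from -1.56 to 4.32 against NK and from -1.55 to 4.32 against ILC2, negative without replicate 1. Log2 ratios that also turned without replicate 1 were, against NK, Slc1a2 from 1.11 to -0.66, Slc1a3 from 1.68 to -1.56, Slc7a4 from 2.28 to -1.11, Slc7a8 from 0.99 to -0.88, Slc36a1 from 0.13 to -0.56, Slc38a3 from 1.04 to -1.21, Slc38a6 from 0.83 to -0.69 and Slc38a9 from 0.30 to -1.66. Against ILC2 they were Slc1a3 to -0.32, Slc7a4 to -2.34, Slc7a6os to -0.087 and Slc38a9 to -0.85, and without replicate 2 Slc36a1 turned to 0.24 and Slc43a1 to 0.28. With TMM and median-of-ratios, MNK-3 against NK had -0.086 and -0.38 for Slc36a1 and -0.48 and -0.86 for Slc38a9, which had -0.28 with limma trend. MNK-3 against ILC2 had -0.12 and -0.35 for Slc1a5, -0.18 and -0.44 for Slc7a6os and, with median-of-ratios alone, -0.38 for Slc38a9, -0.16 for the Slc1a sum and -0.20 for the Slc36a sum. ILC2 against NK had 0.30 and 0.30 for Slc7a11 and 0.22 and 0.23 for Slc38a2. The cause was not tested in any of these. No test could be made with a replicate left out, since no residual is left, and no paired analysis was possible because NK and ILC2 have 1 library each. At the depth of NK, 3 counts are 0.647 CPM, so levels of members under 1 CPM there are not resolved.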
